A study of Mus musculus with 2 samples.

Results

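The straight segment spots are 79 capture spots of a mouse kidney section in which 4 transcripts of the proximal straight tubule, Slc22a7, Slc7a13, Slc22a19 and Serpina1d, took the highest share of the RNA molecules counted. A spot of a Visium slide is a small area printed with barcoded capture probes, and it can lie under several cells of different types. The spots were chosen by these counts: for each spot with at least 1000 UMIs (counts of distinct captured RNA molecules) the summed UMIs of the 4 genes were divided by all UMIs of the spot, which gives a score in CPM (counts per 1000000 UMIs). Of the 790 spots of the SH045 section 788 reached that minimum, and those at or above the 90th percentile of the score, 434 CPM, were taken as straight segment spots. The other 709 are called remaining spots, and both sections together hold 1466 spots. The members closest above the threshold scored 438 and 441 CPM, and the spots closest below it 432 and 426.

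The SH045 section came from the obstructed kidney of a C57BL/6 mouse treated with SH045 (larixyl N-methylcarbamate), which blocks TRPC6, a cation channel that lets calcium into cells. The section labelled Vehicle came from a C57BL/6 mouse that was given vehicle. Both mice had the ureter of that kidney tied off, and the organ was taken at day 7 and cut frozen at 10 µm. The labels used here give no dose, sex or age. With 1 section per group there is no test between groups. Spots of 1 section are not replicates, and no p-value is given anywhere.

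The 79 straight segment spots held 2540628 UMIs, with a median of 32666 per spot (range 6068 to 60185), and the 709 remaining spots 19846895 UMIs, with a median of 27026 (2545 to 72340). The median number of genes per spot was 6884 in straight segment spots and 7000 in remaining spots. The section labelled Vehicle was shallower. Havcr1, the injury marker KIM-1, had 1 UMI (1.98 CPM) in all of the 66 spots that the same rule picked there. In the SH045 straight segment spots Havcr1 had 2072 UMIs (816 CPM). Both mice had the ureter tied off, and the cause of this difference was not tested. The matrices share 335 spot barcodes, which are printed on the slide and do not mark shared cells.

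The proximal tubule begins with a convoluted part in the kidney cortex and ends with a straight part that runs down into the outer stripe of the outer medulla. The convoluted part reclaims most filtered sodium, glucose, phosphate and bicarbonate. The straight part is known for secretion of organic anions and drugs, for steroid and fatty acid metabolism in many peroxisomes, and, in mice, for genes driven by androgen. It borders the thick ascending limb, and it is known to be prone to injury when oxygen supply falls.

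Promoters are shown for 3 genes whose transcripts were abundant together in these spots and whose window holds one of the motifs searched, since HNF4 is a transcription factor family known to drive many proximal tubule genes. The sequences are those of RefSeq on GRCm38.p6, read along the gene's strand. Each runs from 250 bases before to 50 bases after a start position set for the gene. For Kap and Cyp2a4 it is the start of the annotated gene, while for Aadat and Acsm3 it lies inside the annotated gene. The motifs searched, on both strands, were CAAAGTCCA (an HNF4 site) and TATAAA (the TATA box), which did not overlap in these sequences. Matches are in capitals. The same windows of Slc22a19, Serpina1d and Acsm3 were searched too and held neither motif. Kap lies at chr6:133853618-133853917 on the minus strand, Aadat at chr8:60505874-60506173 on the plus strand and Cyp2a4 at chr7:26306942-26307241 on the plus strand.
Kap: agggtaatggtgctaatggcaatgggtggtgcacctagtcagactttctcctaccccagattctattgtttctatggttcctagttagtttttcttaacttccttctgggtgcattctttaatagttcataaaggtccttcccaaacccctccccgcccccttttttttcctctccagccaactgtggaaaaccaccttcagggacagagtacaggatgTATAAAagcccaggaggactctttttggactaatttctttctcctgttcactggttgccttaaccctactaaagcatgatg
Aadat: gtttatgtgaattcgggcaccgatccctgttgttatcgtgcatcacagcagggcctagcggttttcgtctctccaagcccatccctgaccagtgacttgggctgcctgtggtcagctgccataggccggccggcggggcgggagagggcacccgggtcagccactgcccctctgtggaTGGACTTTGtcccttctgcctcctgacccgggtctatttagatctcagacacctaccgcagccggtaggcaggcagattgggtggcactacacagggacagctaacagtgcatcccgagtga
Cyp2a4: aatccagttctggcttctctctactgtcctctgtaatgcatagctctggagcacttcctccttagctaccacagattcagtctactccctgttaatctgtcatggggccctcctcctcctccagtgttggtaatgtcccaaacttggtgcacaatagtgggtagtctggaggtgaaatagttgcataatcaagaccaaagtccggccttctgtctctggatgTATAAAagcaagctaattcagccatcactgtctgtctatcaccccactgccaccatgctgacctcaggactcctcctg
TATAAA began 31 bases before the start of Kap and 28 bases before that of Cyp2a4. In Aadat the HNF4 letters lay on the opposite strand, from 72 bases before the start set for its window. The annotated Aadat gene begins at 60505843, before this window, so these letters lie inside the annotated gene. CAAAGTCCA occurred in 1.65% of the 547 promoters of genes higher in straight segment spots by 1.5-fold or more, in 0.298% of the 2346 promoters of genes lower there, in 0.397% of the 8307 promoters of tested genes and in 0.477% of all 27025 promoters. The 1.65% stands for 9 promoters. TATAAA occurred in 12.6%, 7.89%, 7.24% and 14.2% of the same sets in the same order. Among the named genes of highest ratio 6 of 15 promoters held TATAAA, and among those of lowest ratio 4 of 12. CAAAGTCCA was in 1 of these 15 and 0 of these 12. These are counts of letters in a fixed window and show no binding.

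The levels of the 4 genes that chose the spots follow from the choice and are given as a description, with gene positions from RefSeq on GRCm38.p6. Slc22a7 (ENSMUSG00000067144, chromosome 17, 46432185 to 46438477) and Slc22a19 (ENSMUSG00000024757, chromosome 19, 7673075 to 7711310) encode organic anion transporters. Slc22a7 stood at 109 CPM (of counts summed over the spots) in straight segment spots and 6.15 CPM in remaining spots, and Slc22a19 at 120 and 8.57 CPM. Slc7a13 (ENSMUSG00000041052, chromosome 4, 19818727 to 19842213), an amino acid transporter gene, stood at 382 and 31.8 CPM. Serpina1d (ENSMUSG00000071177, chromosome 12, 103763587 to 103773633) belongs to the alpha-1-antitrypsin genes, which encode secreted protease inhibitors, and stood at 527 and 33.1 CPM. The Serpina1 genes are near-identical copies, so counts could be split between them. Serpina1d gave 46.3% of the defining UMIs in straight segment spots, Slc7a13 33.6%, Slc22a19 10.6% and Slc22a7 9.58%.

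The choice rested on few molecules per spot. Straight segment spots held 2891 UMIs of the 4 genes, with a median of 29 per spot (3 to 173), and remaining spots 1581, with a median of 1 (0 to 21) and 193 spots at 0. A choice made on a random part of the UMIs picked 68 of the same 79 spots, and in the UMIs it had not used, which come from the same spots, the 4 genes were 15.5-fold (Slc22a7), 11.7-fold (Slc7a13), 10.7-fold (Slc22a19) and 14.0-fold (Serpina1d) higher in straight segment spots. Leaving out Slc7a13 from the score kept 65 of the 79 spots, and leaving out Serpina1d, Slc22a19 or Slc22a7 kept 69, 75 or 76. These choices share UMIs or genes with the rule itself, so part of the overlap is built in. The counts of shared spots are a description and no separate support for the choice.

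The spots were not scattered. They formed 13 connected patches, of which the largest held 46 spots, the second 15 and the third 5, with 3 pairs and 7 single spots. Among the grid neighbours of straight segment spots 54.1% were straight segment spots, against 5.28% among the neighbours of remaining spots. The median straight segment spot lay 8 steps from the edge of the section and the median remaining spot 4 steps. The largest patch formed a band deep in the section, at a median of 8 steps from its edge. The smaller patches and single spots lay at medians of 5 to 11 steps. The second patch lay at the margin, at a median of 2 steps.

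**Figure D1:**
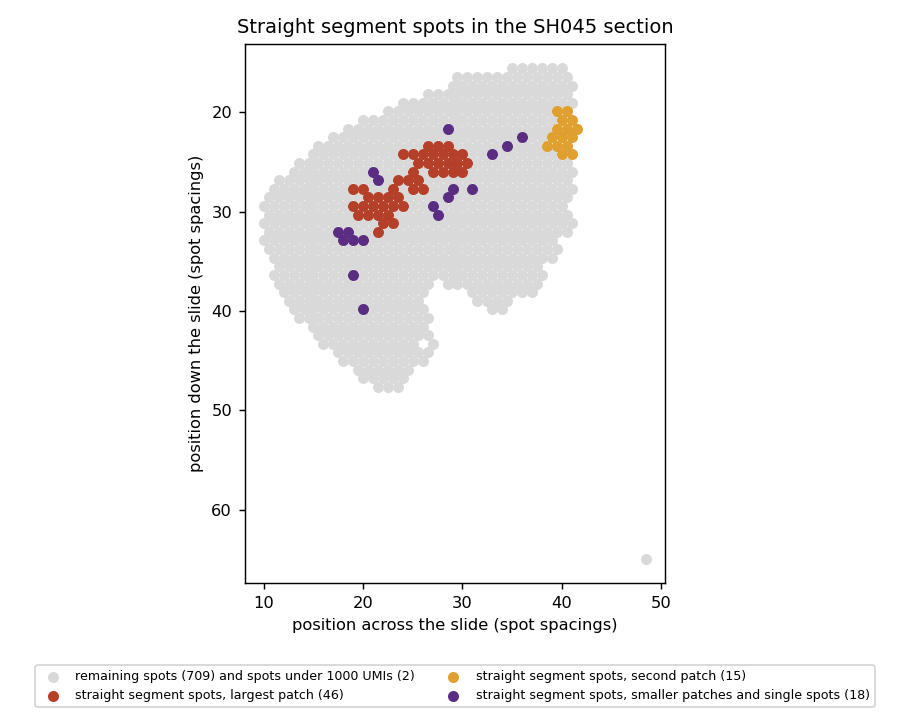
Position of every spot of the SH045 section on the slide, in units of spot spacing. The largest patch of 46 straight segment spots runs as a band through the deep part of the section, the second patch of 15 lies at its margin, and 18 spots form smaller patches or stand alone.

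Other genes of the straight segment were higher in the same spots. The list of straight segment genes used here, with the 4 defining genes left out, had 32 measured members (at least 10 CPM in straight segment or remaining spots), of 33 in the files. Of these 28 were higher in straight segment spots by 1.5-fold or more and 0 were lower, against 6.88% of all 10429 genes tested that were higher and 28.7% that were lower. The median log2 ratio of the list was 2.20. The median over all genes with at least 10 CPM in both sets was -0.32, so each log2 ratio is also given relative to it where that bears on the direction, and relative to it 30 members were higher and 0 lower, against 12.6% and 10.9% of all tested genes. Over all tested genes the calls were 718 higher and 2991 lower (19.4% higher), and relative to the median gene 1316 higher and 1139 lower (53.6% higher).

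Kap, the kidney androgen-regulated protein gene (ENSMUSG00000032758, chromosome 6, 133849855 to 133853667), ranged from 10816 CPM over a median of 36682 to 93285 CPM among straight segment spots, and from 773 over 4617 to 56080 CPM among remaining spots. Summed over spots it stood at 44913 CPM against 8252 CPM, a ratio of 5.44 (95% interval 5.40 to 5.48, for counting error only, as all intervals here). The lowest straight segment spot lay above the median of the remaining spots, but the ranges overlapped. The list summed to 58320 CPM in straight segment spots and 11543 CPM in remaining spots, a ratio of 5.05 (5.02 to 5.09). Without Kap, in an alternative added after the data were seen, the log2 ratio was 2.08 against 2.34 with it.

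Napsa, encoding the aspartic protease napsin A (ENSMUSG00000002204, chromosome 7, 44572445 to 44586846), was the gene whose level followed the score most closely across spots, with a Spearman correlation of 0.68. It was seen in all 79 straight segment spots, from 1082 over a median of 3722 to 9136 CPM, and in remaining spots from 0 over 422 to 3565 CPM. Summed, it stood at 4111 against 612 CPM, a ratio of 6.71 (6.54 to 6.89). Every straight segment spot was thus above the median of the remaining spots. Kap (0.67), the meprin subunit gene Mep1a (0.62), the aminoacylase gene Acy3 (0.61) and the steroid hydroxylase gene Cyp2a4 (0.59) had the next highest correlations. All of these were taken over the 788 spots and share each spot's depth with the score.

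Of 4275 genes that reached 50 CPM in straight segment or remaining spots 2702 had the same direction in each of the 3 position blocks with straight segment spots, and the 25 of highest ratio among these are described next. Mep1b, encoding the beta subunit of the brush border protease meprin, was at 175 CPM in straight segment spots and 13.8 CPM in remaining spots, a ratio of 12.7 (10.9 to 14.8). Prlr, the prolactin receptor gene, was at 91.0 against 8.16 CPM, a ratio of 11.2 (9.08 to 13.7). Next came Ttr, which encodes a thyroid hormone and retinol carrier (99.7 against 9.47 CPM), and the aldo-keto reductase genes Akr1c14 (123 against 12.2 CPM) and Akr1c18 (52.4 against 5.34 CPM).

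Aadat, encoding an aminotransferase of lysine and kynurenine breakdown, was at 417 against 42.9 CPM (ratio 9.70, 8.86 to 10.6), with a median of 325 CPM over straight segment spots and 27.8 CPM over remaining spots. Slc22a13, an organic anion transporter gene, was at 117 against 12.4 CPM (9.37, 7.89 to 11.1), and Slc38a3, a glutamine transporter gene, at 118 against 15.02 CPM. Acy1, an aminoacylase gene, was at 158 against 22.2 CPM, and Slc16a4, of the monocarboxylate transporter family, at 61.5 against 9.22 CPM. In each of the 3 position blocks these genes were higher in straight segment spots, as the rule for naming them required.

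Scd1, encoding the stearoyl-CoA desaturase that makes monounsaturated fatty acids, was at 1043 against 139 CPM (7.51, 7.11 to 7.92), with 118 CPM in the lowest straight segment spot and a median of 92.3 CPM in remaining spots. Cyp7b1, the oxysterol hydroxylase gene, was at 236 against 30.9 CPM, and Cyp2a4 at 561 against 62.1 CPM. The apolipoprotein genes Apoc3 and Apob were at 152 and 110 CPM in straight segment spots, against 17.7 and 16.6 CPM in remaining spots. Cyp2d9, Cyp4a10, Cyp2j11, Mpv17l, Mettl7a2, Acsm3, Ehhadh, Acox2 and Ces1f had ratios between 6.30 and 9.62. Cyp2a4, the Cyp2d, Cyp4a and Akr1c genes belong to families of close copies, so their counts are uncertain to the extent that reads fit several copies.

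**Figure D2:**
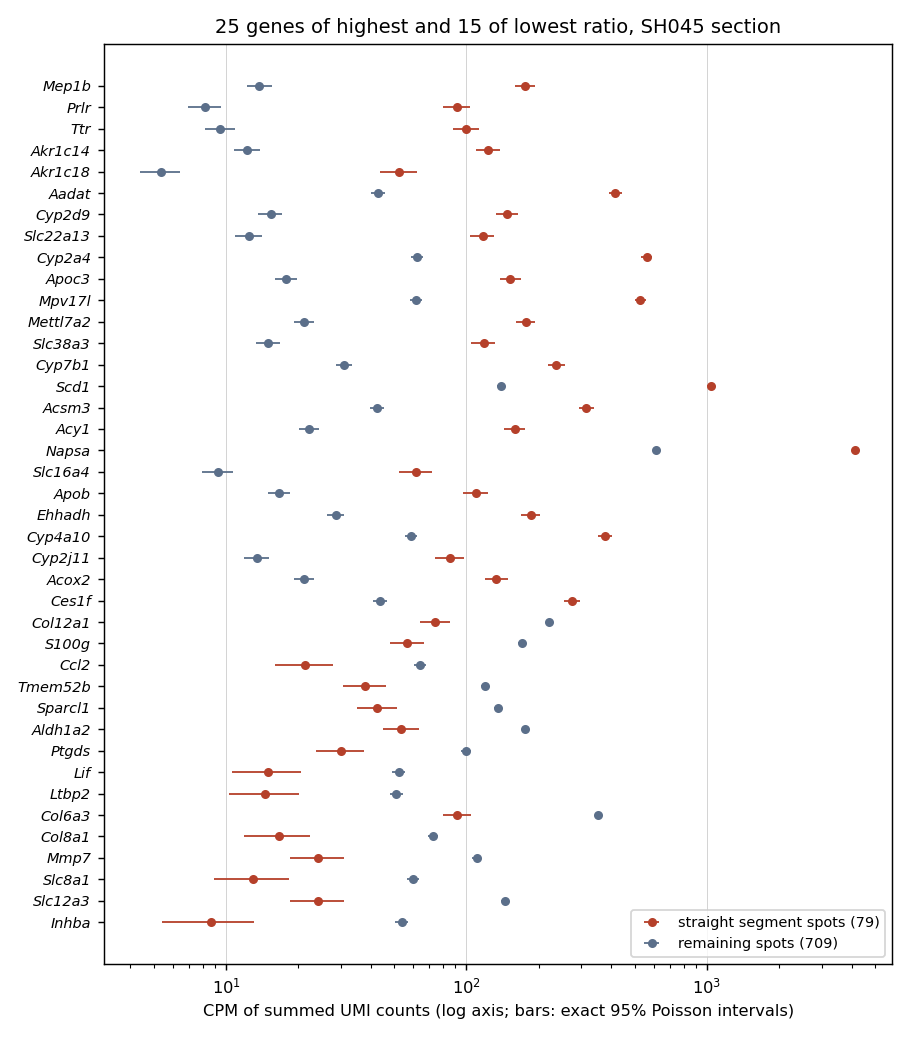
CPM of summed UMI counts, on a log axis, in straight segment spots and remaining spots of the SH045 section for the 25 genes of highest and the 15 of lowest ratio, with exact Poisson intervals. Napsa reaches 4111 CPM in straight segment spots, and the genes from Col12a1 down to Inhba lie to the left in straight segment spots.

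Transporter lists were mostly higher, while 6.88% of all tested genes were higher and 28.7% lower. Of 15 measured SLC22 organic ion transporter genes, the 2 defining ones left out, 13 were higher and 0 lower, and they summed to 1565 against 558 CPM, a ratio of 2.80 (2.70 to 2.91). Slc22a12, the urate transporter gene, stood at 318 against 75.2 CPM, and Slc22a6, encoding the organic anion transporter OAT1, at 214 against 76.2 CPM. Slc22a2, an organic cation transporter gene, stood at 131 against 41.6 CPM. Slc22a26, Slc22a28 and Slc22a30 are close copies of each other, and their counts are uncertain for that reason.

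Of 20 measured amino acid transporter genes 8 were higher, 5 lower and 7 within 1.5-fold, with a median log2 ratio of 0.39. The share lower was near the 28.7% of all tested genes, and relative to the median gene 11 were higher and 1 lower. Slc6a18, a neutral amino acid transporter gene of the late proximal tubule, stood at 708 against 203 CPM, and Slc3a1, encoding the partner subunit rBAT, at 454 against 147 CPM. Slc7a12, an androgen-responsive transporter gene in mice, was at 45.7 against 6.00 CPM. The lower members included Slc38a2, Slc3a2 and Slc1a5, which are expressed in many cell types, at 193, 111 and 43.7 CPM in straight segment spots and 333, 170 and 66.6 CPM in remaining spots. Of 17 sugar and carboxylate transporter genes 10 were higher and 2 lower, with a ratio of the sums of 1.68. The share higher among all tested genes was 6.88%.

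The glucose transporters differed by segment. Slc5a1, encoding SGLT1 of the late proximal tubule, stood at 74.9 against 40.7 CPM, a ratio of 1.84. Slc5a2, encoding SGLT2 of the early proximal tubule, stood at 42.2 against 82.1 CPM, a ratio of 0.513 (0.418 to 0.625). Slc2a5, the fructose transporter gene, was at 46.1 against 6.50 CPM.

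Enzymes of detoxication and of peroxisomes were higher too, where all tested genes had 6.88% higher and 28.7% lower. Of 20 measured cytochrome P450 genes 13 were higher and 1 lower, with a ratio of the sums of 3.14 (3503 against 1117 CPM), and Cyp4a12b was the lower member at 9.85 against 20.1 CPM. Of 26 conjugation and glutathione genes 19 were higher and 0 lower (6557 against 2595 CPM), such as Ugt3a2, a sugar-transferring enzyme gene, at 671 against 128 CPM. Of 29 peroxisome genes 17 were higher and 0 lower (5300 against 2224 CPM). Hao2, a peroxisomal hydroxy acid oxidase gene, was at 762 against 147 CPM, and Cat, encoding catalase, at 552 against 217 CPM. The peroxisome assembly genes Pex5, Pex14, Pex16 and Pex19 were within 1.5-fold, with ratios from 0.84 to 1.08.

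Energy metabolism followed the same direction to a smaller degree. Of 24 mitochondrial fatty acid oxidation genes 10 were higher and 0 lower (ratio of the sums 1.61), led by Acadm, the medium-chain dehydrogenase gene, at 574 against 150 CPM. Of 25 nuclear oxidative phosphorylation genes 5 were higher and 0 lower (1.34), and relative to the median gene 20 were higher. All 12 measured mitochondrially encoded genes were higher, and they summed to 76681 against 38066 CPM, a ratio of 2.01. In gluconeogenesis, fructose and creatine metabolism 9 of 13 were higher and 1 lower, such as Pck1, the rate-limiting enzyme of gluconeogenesis, at 357 against 62.9 CPM. Glycolysis genes had 0 of 19 higher and 5 lower, with a ratio of 0.84, which was a log2 difference of 0.07 relative to the median gene, on the other side of 0. Of all tested genes 6.88% were higher and 28.7% lower, so the share of glycolysis genes that were lower was near that of all genes.

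Brush border, secreted and androgen-responsive genes completed the picture of tubule genes. For comparison, 6.88% of all tested genes were higher and 28.7% lower. Of 27 brush border and endocytosis genes 16 were higher and 0 lower (6715 against 2815 CPM), including Lrp2, encoding the endocytic receptor megalin, at 678 against 185 CPM, and Ace, the angiotensin-converting enzyme gene, at 214 against 45.4 CPM. Of 6 measured SERPINA genes 3 were higher, namely Serpina1f (694 against 124 CPM), Serpina1a (431 against 75.6) and Serpina1b (175 against 79.1). Counts of Serpina1 genes could be split with the defining gene Serpina1d. How far their levels follow from the choice of spots was not tested. Serpina3g and Serpina3n, known as inflammation-induced inhibitors, were lower, both at 14.97 CPM in straight segment spots and at 37.5 and 41.0 CPM in remaining spots. Of 16 androgen-responsive genes 9 were higher and 1 lower. Prlr, Cyp2d9, Cyp7b1, Slc7a12 and Kap were among the 9, while Odc1 and Timd2, of the same list, stood at 209 and 128 CPM in straight segment spots and at 188 and 134 CPM in remaining spots.

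The list of proximal tubule transcription factors, which also holds Sox4 and Sox9, was not raised as a whole. Of 18 measured 2 were higher and 3 lower, against 6.88% and 28.7% of all tested genes. The ratio of the sums was 0.86, which lay on the other side of the median gene (0.10 relative to it). Hnf4a was among the higher members, at 195 against 106 CPM (ratio 1.84, 1.66 to 2.03). Sox4 and Sox9, factors known from developing and injured tubules, were among the lower ones, at 75.3 and 15.8 CPM in straight segment spots and 175 and 42.8 CPM in remaining spots.

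Genes of the convoluted segment were also higher in these spots, to a lesser degree than those of the straight segment. Of 21 measured 14 were higher and 2 lower (4796 against 2176 CPM, ratio 2.20, 2.16 to 2.25), against 6.88% and 28.7% of all tested genes. Slc34a1, the phosphate transporter gene, stood at 985 against 534 CPM, but its median over spots was 310 CPM in straight segment spots and 240 CPM in remaining spots. Fbp1, of gluconeogenesis, was at 493 against 124 CPM, and Miox, whose enzyme breaks down inositol, at 485 against 187 CPM. Slc22a12, Slc13a3 and Pck1 were also among the higher ones. The 2 lower members were Slc5a2 and Slc7a8, an amino acid exchanger gene (20.1 against 42.9 CPM).

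Straight segment spots held less RNA of injured tubule. All 35 members of the list of injured or dedifferentiated tubule genes were measured, of which 0 were higher and 25 lower, with a median log2 ratio of -0.76. Among all tested genes 28.7% were lower. Relative to the median gene 15 members were lower, against 10.9% of all tested genes. The list summed to 22566 CPM in straight segment spots and 36679 CPM in remaining spots, a ratio of 0.62 (0.61 to 0.62). Per spot it ranged from 6124 over a median of 25141 to 55417 CPM in straight segment spots and from 9048 over 36388 to 74596 CPM in remaining spots, so the groups overlapped widely.

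The members were not lower to the same degree. Krt18 and Krt19, keratin genes of simple epithelia, were at 83.5 and 29.6 CPM in straight segment spots, against 231 and 88.4 CPM in remaining spots. Lcn2, encoding lipocalin 2, was at 612 against 1312 CPM (ratio 0.47), and Vcam1, an adhesion molecule gene, at 131 against 297 CPM. By position, the section was divided into 4 blocks, of which 3 held 47, 22 and 10 straight segment spots. The injured list stood at 25937, 14709 and 29960 CPM in the straight segment spots of these blocks, against 39335, 35619 and 36568 CPM in their remaining spots. Lcn2 was not lower in the block with 10 straight segment spots, where it stood at 1055 against 894 CPM. Spp1, encoding osteopontin, was at 11900 against 17742 CPM (0.67), a large part of the sum of the injured list in each set. The summed values of this list by block, zone, patch and spot therefore follow Spp1 to a large degree. No sum without Spp1 is given, while the counts of lower members and their median ratio weigh each gene alike. Havcr1 was within 1.5-fold, at 816 against 1015 CPM (0.80, 0.77 to 0.84), and its median over spots was 650 CPM in straight segment spots and 660 CPM in remaining spots. KIM-1 transcripts were thus present in the 79 spots that held the most straight segment RNA.

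Most matrix, macrophage, MHC class II and complement genes were lower as well. Of 31 structural matrix genes 0 were higher and 27 lower, with a ratio of the sums of 0.53 (6430 against 12104 CPM), and relative to the median gene 14 were lower. Col1a1 and Col3a1, fibrillar collagen genes, stood at 284 and 526 CPM in straight segment spots and 666 and 1075 CPM in remaining spots. Of 17 macrophage genes 0 were higher and 16 lower, 9 of them relative to the median gene (1395 against 2666 CPM), with Lyz2, encoding lysozyme, at 325 against 636 CPM. All 7 MHC class II genes and 12 of 14 complement genes were lower, and 2 and 7 relative to the median gene. Of all tested genes 28.7% were lower, and 10.9% relative to the median gene. B and plasma cell genes summed to 1563 against 1572 CPM, and per spot they ranged from 190 to 17923 CPM in straight segment spots and from 80.7 to 31223 CPM in remaining spots. Fewer cells of a type and less RNA per cell cannot be told apart in spots that cover several cells.

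Among the 15 genes of lowest ratio, chosen in the same way, Inhba, encoding a subunit of activin A, was lowest at 8.67 against 53.8 CPM (ratio 0.161, 0.101 to 0.245). Slc12a3, the sodium chloride cotransporter gene of the distal convoluted tubule, was at 24.04 against 144 CPM (0.167, 0.127 to 0.215). Slc8a1, a sodium-calcium exchanger gene, was at 13.0 against 59.9 CPM, and S100g at 56.7 against 170 CPM. Col6a3, Col8a1 and Col12a1, collagen genes, had ratios of 0.26, 0.23 and 0.34, and the metalloproteinase gene Mmp7 one of 0.22. The others were Ltbp2, Lif, Ptgds, Aldh1a2, Sparcl1, Tmem52b and Ccl2, with ratios from 0.29 to 0.33.

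Markers of neighbouring tubule parts were present in the same spots. Thick ascending limb genes summed to 5796 CPM in straight segment spots and 4195 CPM in remaining spots. Of these 12 genes 5 were higher, 1 lower and 0 at 0 UMIs, against 6.88% higher among all tested genes. Umod, encoding uromodulin, ranged from 728 over a median of 2940 to 20817 CPM in straight segment spots and from 171 over 2270 to 32032 CPM in remaining spots. Thin limb markers summed to 2328 against 1414 CPM, a ratio of 1.65 carried by Aqp1 (1071 against 250 CPM), a water channel gene that the proximal tubule also expresses, while 4 of the 8 measured were lower. Podocyte markers had 6 of 6 measured lower (121 against 261 CPM), intercalated cell markers 6 of 7 (309 against 547 CPM) and distal convoluted and connecting tubule markers 7 of 9 (458 against 829 CPM), against 28.7% of all tested genes. Relative to the median gene 5, 5 and 6 of them were lower, against 10.9% of all. Principal cell markers summed to 554 against 624 CPM, which relative to the median gene lay 0.14 above it on the log2 scale.

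Endothelial markers had 8 of 10 measured lower (587 against 931 CPM), fibroblast markers 9 of 10 (1639 against 3407 CPM) and smooth muscle and pericyte markers 5 of 7 (606 against 1018 CPM), against the same 28.7%. Relative to the median gene 2, 9 and 4 of them were lower. T and NK cell markers summed to 16.2 against 41.6 CPM with 0 measured, neutrophil markers to 13.4 against 30.3 CPM with 3 of 8 at 0 UMIs, and urothelial markers to 88.7 against 200 CPM with 4 of 11 at 0 UMIs. Erythroid markers summed to 76.4 against 63.2 CPM. The part of these other cells in the results above was not tested.

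Among 20 heat shock and immediate early genes 6 were lower (4495 against 5735 CPM), of 14 stress response and p53 genes 4 (1861 against 2363 CPM), of 16 cell cycle genes 8 (596 against 874 CPM) and of 14 interferon response genes 7 (654 against 1017 CPM). The shares of the first 2 lists are near the 28.7% of all tested genes that were lower. Relative to the median gene 2, 0, 4 and 4 members of these lists were lower, and 0, 1, 0 and 1 higher. Of 13 MHC class I genes 6 were lower (2597 against 3689 CPM), and relative to the median gene 2 were higher and 1 lower. Relative to the median gene the log2 ratios of the sums were -0.04, -0.03, -0.24, -0.32 and -0.19 for the lists in the order given.

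**Figure D3:**
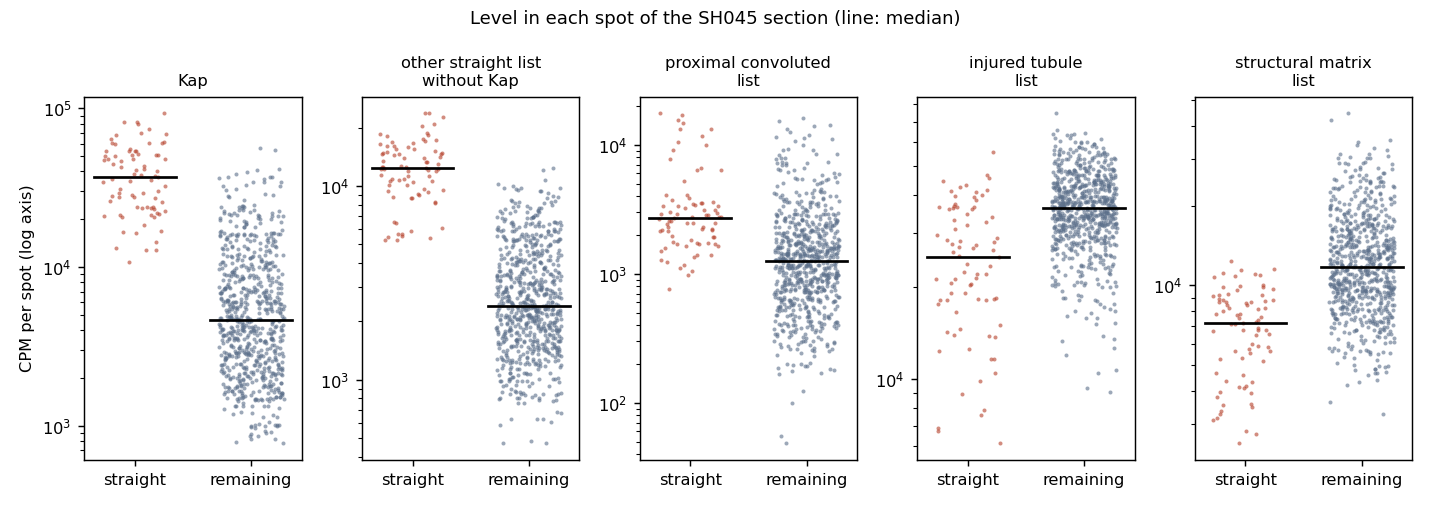
CPM in each spot of the SH045 section on log axes, for Kap and 4 gene lists, with straight segment spots left of remaining spots and a line at the median. The medians of the straight segment list without Kap are 12369 CPM in straight segment spots and 2402 CPM in remaining spots, while those of the injured tubule list are 25141 and 36388 CPM, with overlap in every panel.

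Levels were graded with distance from the straight segment spots. The straight segment list without Kap summed to 13407 CPM in straight segment spots, 5698 CPM in the 121 spots at 1 grid step, 4424 CPM in 101 spots at 2 steps, 2911 CPM in 181 spots at 3 to 4 steps and 2214 CPM in 306 spots at 5 steps or more. The 4 defining genes summed to 1138, 187, 111, 60.5 and 39.6 CPM over the same zones. The difference was largest between straight segment spots and the next zone, which for the defining genes follows from the choice of spots. Thick ascending limb genes had their highest level at 1 step (6344 CPM, against 5796 CPM in straight segment spots and 3144 CPM at 5 steps or more).

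Injured tubule genes differed more between straight segment spots and their neighbours than among the zones farther out. They summed to 22566 CPM in straight segment spots, 35470 CPM at 1 step, 33896 CPM at 2 steps, 38284 CPM at 3 to 4 steps and 37086 CPM at 5 steps or more. Structural matrix genes summed to 6430, 10289, 10680, 11678 and 13568 CPM, and macrophage genes to 1395, 2201, 2349, 2764 and 2894 CPM. Havcr1 was highest next to the straight segment spots, with 816 CPM in them, 1266 CPM at 1 step, 1247 CPM at 2 steps, 1025 CPM at 3 to 4 steps and 832 CPM farther out. Lcn2 was highest in the farthest zone, with 612, 982, 975, 1179 and 1641 CPM. B and plasma cell genes were highest at 1 and 2 steps, at 2225 and 2234 CPM, against 1563 CPM in straight segment spots and 1264 CPM at 5 steps or more.

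**Figure D4:**
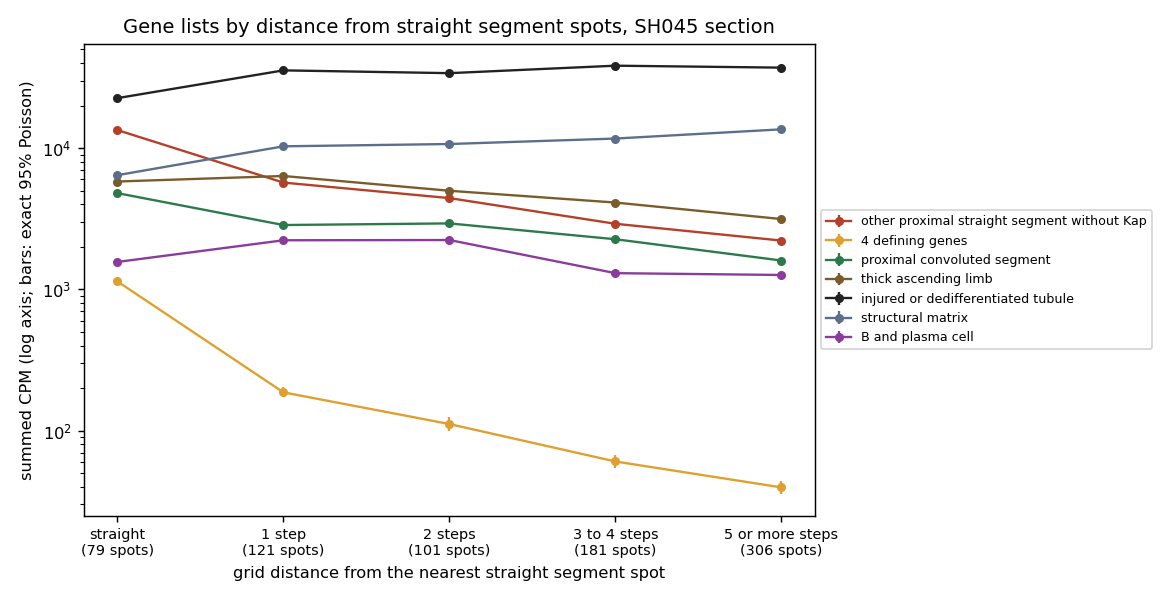
Summed CPM of 7 gene lists, on a log axis, in straight segment spots and in zones of growing grid distance from them in the SH045 section. The injured tubule list stands at 22566 CPM in straight segment spots and between 33896 and 38284 CPM in the other zones, and the straight segment list without Kap is lower in each zone than in the zone before.

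The patches differed among themselves. In the 15 spots of the second patch at the section's margin the injured tubule list summed to 12555 CPM, against 26724 CPM in the 46 spots of the largest patch and 24583 CPM in the other 18 spots. The median depth was 45178 UMIs in the second patch, 28851 in the largest and 30912.5 in the others. The straight segment list without Kap stood at 13748, 14325 and 10530 CPM in that order, and Napsa at 3757, 4750 and 2879 CPM. The second patch therefore held a like level of straight segment genes and a lower level of injury genes than the largest.

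The second patch also held more convoluted segment RNA. The convoluted list stood at 8272 CPM in the second patch, 3389 CPM in the largest and 4000 CPM in the others, and Slc34a1 at 1870, 595 and 865 CPM. Slc5a2 was at 91.4, 22.1 and 31.3 CPM, and Ttr at 229, 63.3 and 27.3 CPM. Mitochondrially encoded genes summed to 100933, 70999 and 60147 CPM. Igkc, the immunoglobulin kappa constant gene, was at 279 CPM in the second patch, 1544 CPM in the largest and 1398 CPM in the others. With the largest patch left out, an alternative added after the data were seen, the log2 ratio of the injured list was -1.04, against -0.70 with all 79 spots.

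Within the 79 spots the lists varied with each other and with depth. Spots with more of the straight segment list without Kap had less of the injured list (Spearman correlation -0.56) and more of the convoluted list (0.45). The injured list had a correlation of -0.75 with the convoluted list and of 0.65 with the structural matrix list. All pairs share a spot's depth, with which the straight segment list had a correlation of 0.50, the convoluted list 0.60 and the injured list -0.69. Spots lie side by side and are not independent, so these values describe this section only.

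Straight segment spots were set against convoluted segment spots of the same section, the 79 spots with the highest share of Slc5a2, Slc5a12, Slc22a6 and Slc22a8. The sets shared 13 spots, which were left out, leaving 66 in each. Of 10054 genes tested 7.4% were higher and 8.69% lower, and 8.24% and 7.87% relative to the median gene. Straight segment genes had 23 of 32 higher and 4 lower (51332 against 22404 CPM), and the convoluted list had 1 of 23 higher and 18 lower (2703 against 7075 CPM), which includes the genes that chose the convoluted spots. Both sets were chosen by their own marker genes and their shared spots were left out, so a difference in these lists follows in part from the choice, and the second patch of straight segment spots had 8272 CPM of the convoluted list. The injured tubule list stood at 25670 against 23166 CPM and the structural matrix list at 7230 against 7261 CPM, ratios of 1.11 and 0.996.

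Single genes separated these sets further than the lists did. Mep1b was at 194 CPM in straight segment spots and 9.36 CPM in convoluted segment spots (ratio 20.8, 13.8 to 32.8), Cyp7b1 at 296 against 19.9 CPM (14.9) and Scd1 at 1219 against 88.5 CPM (13.8). Serpina1f was at 842 against 65.9 CPM and Serpina1a at 518 against 43.7 CPM. Of the straight segment list, Cyp4b1 and Cyp2e1, the second of which the convoluted list holds too, were lower, at 172 and 49.0 CPM against 600 and 367 CPM. Gatm, encoding the first enzyme of creatine synthesis, was at 36.4 against 300 CPM, and Gpx3, the secreted glutathione peroxidase gene, at 11107 against 25789 CPM. Thick ascending limb genes were at 6733 against 2459 CPM, complement C3 at 429 against 1011 CPM and Igkc at 1406 against 585 CPM.

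Against thick ascending limb spots, the 79 spots with the highest share of Umod and Slc12a1, 67 spots remained in each set after 12 shared ones were left out. Of 10491 genes 9.88% were higher and 34.3% lower, and 16.3% and 17.6% relative to the median gene. Straight segment genes had 29 of 32 higher and 1 lower (60273 against 10239 CPM), and the convoluted list 20 of 21 higher and 1 lower (5252 against 1083 CPM). The injured list had 2 of 35 higher and 19 lower, with Havcr1 among the higher ones at 851 against 515 CPM and Lcn2 among the lower ones at 607 against 1681 CPM. Hnf4a was at 209 against 44.4 CPM.

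The same rule was applied to the section labelled Vehicle, where it chose 66 of 659 spots with at least 1000 UMIs. The choice rested on 318 UMIs, with a median of 3 per spot, and 89.6% of them were Slc7a13, so the chosen spots are not the same kind of set. They formed 37 patches, the largest of 7 spots, and 18.9% of their neighbours were chosen spots, against 9.01% for the remaining 593 spots. The median depth was 6150 UMIs in the 66 spots. Serpina1d had 7 UMIs in them, or 13.8 CPM, against 1339 UMIs and 527 CPM in SH045 straight segment spots above.

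Of 8565 genes tested there 9.98% were higher and 15.1% lower, and 9.17% and 16% relative to the median gene. The straight segment list had 15 of 26 measured higher and 0 lower, with a ratio of 1.71 (77644 against 45443 CPM), and Kap stood at 66784 against 38084 CPM. The convoluted list had a ratio of 1.07 and the thick ascending limb list one of 1.53. Mep1b, of highest ratio in the SH045 section, was at 51.4 against 10.5 CPM in the section labelled Vehicle (4.89, 2.87 to 8.22, from 26 and 40 UMIs). Distal convoluted and connecting tubule genes were lower in the chosen spots, at 8140 against 25369 CPM.

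The depth of the sections differed, and the rule was repeated with every spot thinned at random to 2500 UMIs. It left out 2 spots in the SH045 section and 115 in the section labelled Vehicle. With so few UMIs the threshold fell on spots with 1 UMI of the 4 genes, so 199 of 788 and 146 of 561 spots were chosen, of which 70 and 41 were chosen before. The ratio of the straight segment list without Kap was 2.62 in the SH045 section and 1.33 in the section labelled Vehicle. The largest patch held 129 spots in the SH045 section and 11 in the section labelled Vehicle.

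**Figure D5:**
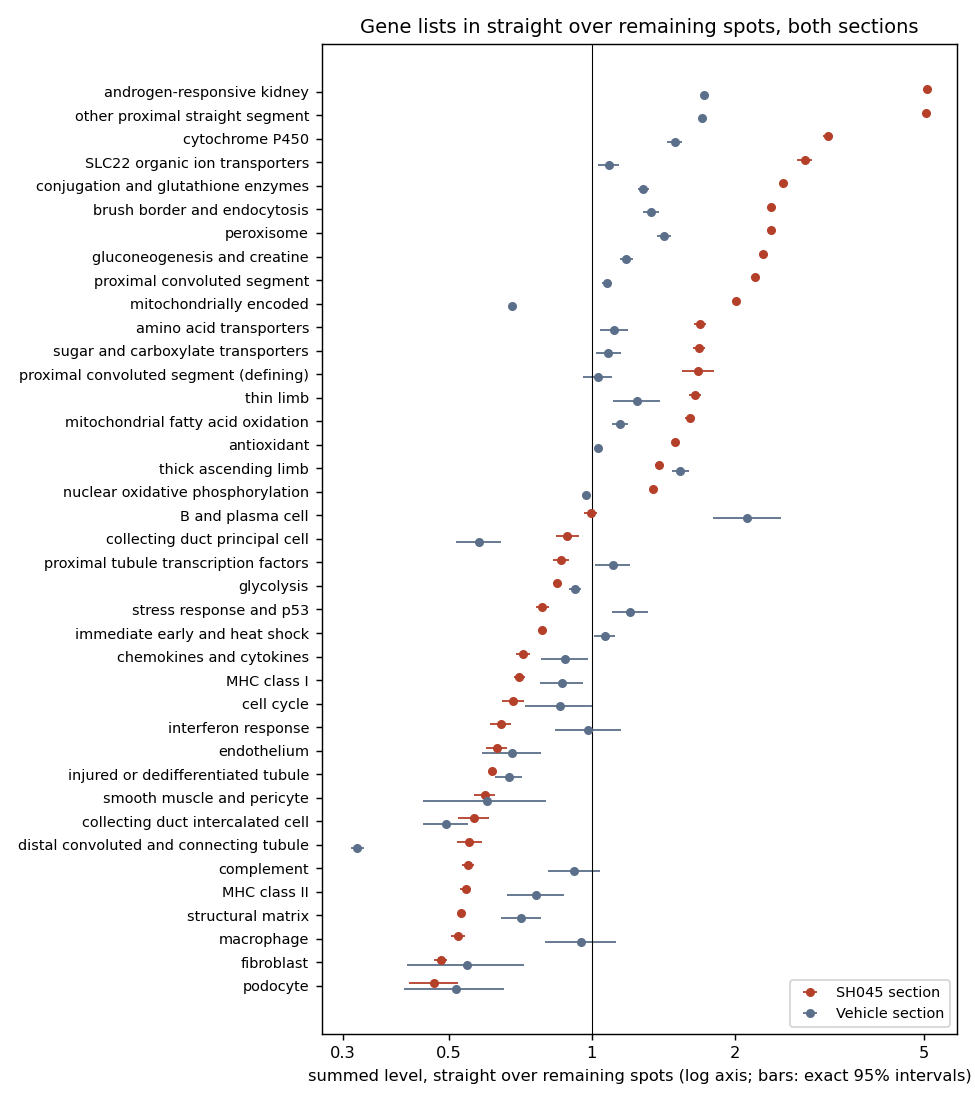
Ratio of summed CPM in straight segment spots over remaining spots, on a log axis with exact intervals, for gene lists in the SH045 section and in the section labelled Vehicle, where the rule rests on a median of 3 UMIs per spot. The straight segment list lies at 5.05 in the SH045 section and at 1.71 in the section labelled Vehicle, and mitochondrially encoded genes lie on different sides of 1.

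The chosen spots of the sections were also set directly side by side. Of 9680 genes tested 40.2% were higher in SH045 straight segment spots and 14.2% lower. The median gene had a log2 ratio of 0.16, and relative to it 34.2% were higher and 18.7% lower. The injured list had 33 of 35 higher and 0 lower (22566 against 2025 CPM), with Spp1 at 11900 against 470 CPM. The structural matrix list had 28 of 29 higher (6430 against 901 CPM) and the macrophage list 16 of 17 (1395 against 304 CPM). Treatment, mouse, section position and depth cannot be told apart with 1 section each.

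Proximal genes went in both directions in this comparison. Straight segment genes had 17 of 32 higher and 8 lower, but its sum was lower, at 58320 against 77644 CPM (ratio 0.75), through Kap (44913 against 66784 CPM). Without Kap the log2 ratio was 0.27, against -0.41 with it. Napsa was at 4111 against 472 CPM, Scd1 at 1043 against 41.5 CPM and Cyp7b1 at 236 against 15.8 CPM. Serpina1a had 1094 UMIs in SH045 straight segment spots and 0 in those of the section labelled Vehicle. The convoluted list had 0 of 21 higher and 17 lower (4796 against 15955 CPM), with Slc34a1 at 985 against 4902 CPM. Nuclear oxidative phosphorylation genes stood at 15840 against 25600 CPM, and distal convoluted and connecting tubule genes at 458 against 8140 CPM.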

How the data were processed

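The values deposited by the authors are raw UMI counts, 1 matrix per section, in which 32285 genes are listed for every spot. Space Ranger 2.0.1 wrote them, per the file headers. The build was mm10, as named by the submitters' processing notes. Alignment settings: not given in the sources used here. Of the 676 spots in the Vehicle matrix 570 carry the tissue flag, so all were used and the flagged spots alone were an alternative.

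Counts were summed over spots and scaled to CPM, the 4 defining genes left out of totals. Intervals are exact at 95% (Poisson for levels, conditional binomial for ratios) and cover counting error only. Genes with at least 10 CPM in either set were tested for a fold of 1.5, which is a size rule and no test. Distances are grid steps. No doublet caller was run, since a spot is no cell. The members and the 45 gene lists were chosen with earlier results of these data known. Named genes are the 4 defining genes, the 25 highest and 15 lowest ratios with at least 50 CPM and the same direction in 3 position blocks (mitochondrial, ribosomal, haemoglobin, immunoglobulin and predicted genes left out), members of the lists, and the 5 genes closest to the score. Values of some list members are not reported here. Promoters were matched by symbol for 15 of the 25 genes. The script was tested on simulated data. Python 3.11.15, numpy 2.4.6, scipy 1.17.1, pandas 2.3.3 and matplotlib 3.10.9 were used.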

Additional observations from a re-analysis of the deposited data

Results flagged for a closer look

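In 5 gene lists the ratio of summed CPM in straight segment spots over remaining spots lay on different sides of 1 in the SH045 section and in the section labelled Vehicle, and each difference between sections was not tested. Mitochondrially encoded genes had a ratio of 2.01 in the SH045 section and 0.680 in the section labelled Vehicle. Nuclear oxidative phosphorylation genes had ratios of 1.34 and 0.972 in the same order. The list of proximal tubule transcription factors, which also holds Sox4 and Sox9, had 0.860 in the SH045 section and 1.11 in the section labelled Vehicle. Immediate early and heat shock genes had 0.784 and 1.06, and stress response and p53 genes 0.788 and 1.20. For the last 3 lists the SH045 value moves to a log2 ratio of 0.10, -0.04 and -0.03 once taken relative to the median gene.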

How the results depend on the processing

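No paired analysis was possible because each group has 1 section. No replicate could be left out, and 61 values were recomputed, of which 21 stayed within their counting interval or within 1.5 times the count. Main values were 718 genes higher, 2991 lower, and log2 ratios of 2.34 (straight list), 1.14 (convoluted list), -0.70 (injured list) and -0.41 (straight list, SH045 over Vehicle). In that order of lists, the values were 2.23, 1.02, -0.52 and -0.59 at the 85th percentile and 2.30, 0.84, -0.90 and -0.28 at the 95th. Spots thinned to 2500 UMIs gave 1825 genes lower and 1.60, 0.68, -0.19 and -0.98. Median-of-ratios scaling gave 1362 genes higher and 1139 lower, and 2.65, 1.46, -0.39 and -0.58. Remaining spots at least 3 steps away gave 2.93, 1.37 and -0.73. Equal weight per spot gave 2.32, -0.53 and -0.30 for the straight, injured and SH045 over Vehicle values, and separate UMIs for choice and measurement gave 2.30 and -0.68 for the first 2 of these. SH045 over Vehicle was -0.52 with 5000 UMIs per spot and -0.51 with flagged Vehicle spots. Genes higher and lower numbered 468 and 860 at 50 CPM, 5019 and 5029 with no minimum and 410 and 836 at a fold of 2. Of the alternatives added after seeing the data, leaving out Kap gave 2.08 and turned SH045 over Vehicle to 0.27, and leaving out the largest patch gave 2.47, 1.56 and -1.04. The cause of these moves was not tested, apart from fewer or more genes passing the minimum or fold.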

Other observations

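A few genes stood apart from their lists in straight segment spots, and they were picked after their values were seen. The shares among all tested genes were 6.88% higher and 28.7% lower. Nqo1, encoding a quinone reductase of the antioxidant list, stood at 78.0 CPM in straight segment spots and 17.2 CPM in remaining spots, a ratio of 4.53, while the antioxidant list had 9 of 24 genes higher and 1 lower. The metallothionein genes Mt1 and Mt2 of the same list were at 735 and 444 CPM, against 1002 and 778 CPM. Among chemokines and cytokines, of which 13 of 20 were lower, Ccl28 was at 15.8 against 5.44 CPM and Cxcl12 at 122 against 83.6 CPM. Cd55, an inhibitor of complement activation on cell surfaces, was at 16.9 against 7.86 CPM and was the complement gene that was higher. Aqp4, a water channel gene of the collecting duct list that is also known from the mouse straight proximal tubule, was at 24.8 against 8.77 CPM. Itgb6, an integrin subunit gene of the injured tubule list, was at 211 against 187 CPM.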
